A study of Mus musculus with 2 samples.

Results

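The genes described here encode 10 transcription factors and cofactors of red cells and blood progenitors: Gata1, Gata2, Klf1, Tal1, Nfe2, Gfi1b, Zfpm1, Lyl1, Lmo2 and Myb. They were taken by name, as every probe set whose platform annotation gives exactly 1 gene symbol and that symbol is on the list, which gave 14 probe sets of 45101 on the array and 10 genes of 18193. Gene expression was compared between mesothelial cells, the flat epithelium over the liver surface, and liver cells, both from wild-type C57Bl6 mouse embryos at E12.5. The mesothelial cells had been sorted by FACS for podoplanin (Pdpn) on their surface after trypsin-EDTA digestion of the liver, and the liver cells are described by the labels only as such. Each group was 1 Affymetrix array made from 20 ng of total RNA with no replicate, so nothing was tested and every difference describes these arrays only. Where a value stands for blood cells in a mixed sample, fewer cells of a type and less RNA per cell cannot be told apart.

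At this stage the liver is the main site of red cell production, and red cell precursors there mature around macrophages. Gata2 and Myb act in stem and progenitor cells, before Gata1 takes over the sites of Gata2 as red cell precursors mature. Gata1 binds with its cofactor Zfpm1, also called FOG1, and with a complex in which Lmo2 bridges the basic helix-loop-helix factor Tal1, or its relative Lyl1, to GATA proteins through Ldb1. Klf1 activates globin and red cell membrane genes, Nfe2 is the blood-restricted subunit that pairs with small Maf proteins, and Gfi1b is a repressor needed for red cells and megakaryocytes.

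Of the 10 genes, RefSeq tables of the GRCm38.p6 build hold a start for 8, with 2 starts each for Gata2 and Tal1, and none for Nfe2 or Lmo2. The 250 bases before each start were searched on both strands for AGATAA or TGATAA, a form of the site that GATA factors bind, and for CACCC, the core of sites for Klf1 and related proteins. Shown are the windows of the 3 genes that hold the GATA letters, Klf1, Gfi1b and Tal1 (its upstream start), then those of Lyl1 and Zfpm1, which lay nearest the liver and the mesothelial end of the expression differences among the genes with a window. Capitals mark both motifs on either strand, 5′ to 3′ along the gene.
Klf1, chr8:84901732-84901981, plus strand: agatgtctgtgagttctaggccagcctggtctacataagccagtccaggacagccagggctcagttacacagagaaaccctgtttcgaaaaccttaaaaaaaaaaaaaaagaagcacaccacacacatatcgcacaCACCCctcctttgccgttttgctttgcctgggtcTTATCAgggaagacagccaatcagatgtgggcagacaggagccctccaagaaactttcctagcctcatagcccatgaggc
Gfi1b, chr2:28621983-28622232, minus strand: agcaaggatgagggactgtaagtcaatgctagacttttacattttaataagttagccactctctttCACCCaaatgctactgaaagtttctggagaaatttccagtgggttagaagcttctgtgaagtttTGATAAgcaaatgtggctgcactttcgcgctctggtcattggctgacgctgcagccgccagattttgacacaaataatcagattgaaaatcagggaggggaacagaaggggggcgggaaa
Tal1, chr4:115056176-115056425, plus strand: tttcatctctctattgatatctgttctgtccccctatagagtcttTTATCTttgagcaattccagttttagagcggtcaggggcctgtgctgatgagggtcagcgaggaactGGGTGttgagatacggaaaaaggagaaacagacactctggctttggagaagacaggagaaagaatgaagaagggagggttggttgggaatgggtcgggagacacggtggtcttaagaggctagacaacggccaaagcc
Lyl1, chr8:84701207-84701456, plus strand: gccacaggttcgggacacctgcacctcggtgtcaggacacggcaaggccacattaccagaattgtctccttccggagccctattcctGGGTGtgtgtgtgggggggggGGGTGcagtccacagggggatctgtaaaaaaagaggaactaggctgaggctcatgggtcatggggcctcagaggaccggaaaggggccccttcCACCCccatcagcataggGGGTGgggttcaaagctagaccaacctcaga
Zfpm1, chr8:122281891-122282140, plus strand: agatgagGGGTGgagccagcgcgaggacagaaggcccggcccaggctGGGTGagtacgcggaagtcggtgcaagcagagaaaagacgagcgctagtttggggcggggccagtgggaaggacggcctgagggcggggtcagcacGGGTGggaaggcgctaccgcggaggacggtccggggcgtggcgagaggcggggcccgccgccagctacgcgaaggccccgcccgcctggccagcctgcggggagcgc

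In these windows the GATA letters began 80 bases before the start of Klf1, 120 before that of Gfi1b and 205 before the upstream start of Tal1. They were in 3 of the 10 windows of the group, and in 16.6% of 32851 windows of the same length in the table. CACCC was in 8 of the 10 windows and in 52.0% of all, with 4 matches for Lyl1, 3 for Zfpm1 and 2 for Gata1. CANNTG, the E-box letters of basic helix-loop-helix factors, was in 4 windows of the group and in 66.2% of all. No 2 matches of these 3 motifs overlapped in the windows printed except a CACCC and a CANNTG of Gfi1b. A match of letters is a description of the window and not a bound site. GC content ran from 44.4% for Gfi1b to 81.2% for Myb, against a median of 52.4% over all windows.

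Both arrays gave clear signal for the whole group. All 14 probe sets lay above the floor used here, the median of all probe sets of the array, which was 65.8 for mesothelial cells and 42.3 for liver cells. The least bright, a probe set of Zfpm1, read 6.0 times and 7.2 times the highest bacterial control probe set of its array, and the others were at least 18.3 times that level. The factors therefore read well over background in the cells sorted for Pdpn as well as in liver cells. Differences are given below as log2 intensity in mesothelial minus liver cells, from the gene's brightest probe set. Over all genes their median was 0.66, a fold of 1.58, so differences relative to that median are given too. As deposited, 5 of the 10 factors read higher and 5 lower in mesothelial cells, and the group's median was 0.00, which is -0.66 when set against all genes.

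**Figure D1:**
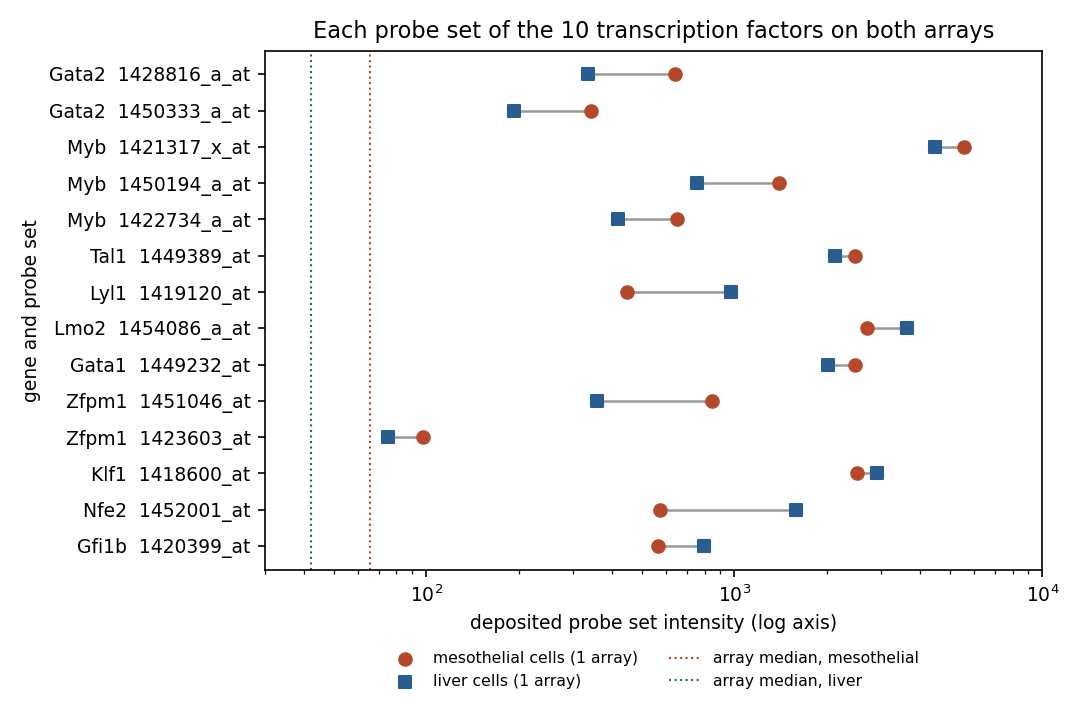
Deposited intensity of the 14 probe sets of the 10 transcription factors (log axis), with mesothelial cells as circles, liver cells as squares, a line joining the values of a probe set, and dotted lines at the median of each array. Nfe2 and Lyl1 have the liver value to the right by over 2-fold, and the brighter probe set of Zfpm1 has the mesothelial value to the right by 2.36-fold.

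A gene is said to pass 2-fold on the mesothelial or the liver side when it is above the floor and the intensities differ that far. Of the 10 factors 1 passed on the mesothelial side, where 45.4% of the 12018 genes above the floor passed, and 2 on the liver side, where 3.83% did. The other 7 lay within 2-fold. With each array centred on its own median, 0 and 4 passed, against 23.9% and 9.25% of genes. Among all genes that passed 2-fold, 92.2% were higher in mesothelial cells as deposited. This share was 72.1% with median centring, 65.1% with quantile normalization and 44.9% with centring on the hybridisation controls. It was 91.9% with removal of the paired difference of the same controls, so the 2 uses of these controls disagree. In the factors the same settings gave 1 against 2, then 0 against 4, 0 against 4, 0 against 5 and 1 against 2. On the mesothelial side 45.4%, 23.9%, 20.7%, 14.6% and 44.6% of all genes above the floor passed. On the liver side 3.83%, 9.25%, 11.1%, 17.9% and 3.95% of them passed. Across all these settings 8 factors lay below the median of all genes and 2, Gata2 and Zfpm1, above it. Of these settings only quantile normalization could have changed that, since the others move every gene alike. With the median over probe sets, or without probe sets ending in _x_at or _s_at, 7 lay below it and 3 above, with Myb the gene added.

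The progenitor factors Gata2 and Myb read higher in mesothelial cells as deposited. By their brightest probe sets they lay on different sides of the median of all genes. Gata2, which maintains stem and progenitor cells, had 2 probe sets. The brighter read 643.8 in mesothelial and 334.8 in liver cells, and the other read 341.3 and 192.2. Both were higher on the mesothelial array, with differences of 0.94 and 0.83 and an SD of 0.08 between them. Centring on the hybridisation controls turned the sign of the brighter to -0.13, while removing the paired difference of the same controls left it at 0.92. Their ranks hardly moved, from the 83.0 percentile of the liver array to the 83.9 percentile of the mesothelial array for the brighter. Set against all genes, Gata2 differed by 0.28.

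Myb, a factor of proliferating progenitors whose loss stops definitive blood formation in the liver, was measured by 3 probe sets. The brightest, of a kind that can bind related transcripts (name ending in _x_at), read 5569.9 in mesothelial and 4465.2 in liver cells. The other 2 read 1391.4 against 756.4 and 650.1 against 417.7. All 3 were higher on the mesothelial array, by 0.32, 0.88 and 0.64 on the log2 scale with an SD of 0.28, and the value of the brightest turned sign under other scalings. Without probe sets that can bind related transcripts the difference of Myb was 0.88, or close to that of Gata2. Set against all genes, the brightest probe set of Myb differed by -0.35. With the median over probe sets Myb was at 0.64, where all genes had a median of 0.57. Without probe sets that can bind related transcripts it was 0.88 against 0.64, so in both settings Myb lay above the median as Gata2 did.

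Tal1, Lyl1 and Lmo2 had differences of both signs as deposited. Tal1, required for the onset of blood formation, read 2468.1 in mesothelial and 2120.9 in liver cells, a difference of 0.22 that turned sign under other scalings. Lyl1, its closest relative, read 448.3 against 973.8 and was 2.17-fold higher in liver cells. Lmo2, the bridging protein, read 2698.1 against 3639.2 and was 1.35-fold higher in liver cells. Tal1 and Lmo2 were 0.65 apart on the log2 scale, within the spread of 0.70 between probe sets of a gene. Tal1 and Lyl1 were 1.34 apart on the log2 scale, a 2.53-fold gap that a scale factor between arrays does not alter. Only Lyl1 of these 3 passed 2-fold as deposited, and Lmo2 joined it after median centring at -1.07. Each of these genes has 1 probe set, so no spread between probe sets can be given.

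Gata1 and its cofactor Zfpm1 both read higher in mesothelial cells as deposited. Gata1, the central activator of red cell genes, read 2464.3 in mesothelial and 2014.0 in liver cells, 1.22-fold higher, a sign that turned under other scalings. Its rank was the 95.6 percentile of the mesothelial array and the 96.9 percentile of the liver array. Zfpm1 read 844.6 against 357.9 with its brighter probe set, 2.36-fold higher, and 97.4 against 75.1 with the other. The 2 probe sets of Zfpm1 differed by 1.24 and 0.38, with an SD of 0.61, and their median of 0.81 is under 2-fold. By the brightest probe set Zfpm1 was the member furthest to the mesothelial side, while by the median over probe sets Gata2 was, at 0.89. By its brighter probe set Zfpm1 kept the mesothelial side under the 6 scalings tried, with a lowest value of 0.16. Its other probe set, at 0.38, did not, since median centring lowers every gene by 0.64.

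Among the factors of maturing red cells and megakaryocytes, Nfe2 stood furthest to the liver side. Nfe2 read 572.4 in mesothelial and 1581.1 in liver cells, 2.76-fold higher in liver cells and -2.13 relative to all genes. Only 2.3% of genes above the floor had a lower difference, and its rank was the 82.5 percentile on the mesothelial array against 95.8 on the liver array. Gfi1b read 565.5 against 798.6, 1.41-fold higher in liver cells, and lay at the 82.3 and 91.6 percentiles. Klf1 read 2494.4 against 2899.3, 1.16-fold higher in liver cells. All 3 were on the liver side under the 6 scalings. Each of the other scalings moved all 10 factors further to the liver side, so this kept sign is no added support. Gfi1b passed 2-fold after median centring at -1.14. Nfe2 differed from Gata1 by 1.76 on the log2 scale, a 3.38-fold gap. Both are known as activators of red cell genes.

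From end to end, Zfpm1 and Nfe2 were 2.70 apart, a 6.52-fold gap within the group. The SD between the 10 differences was 0.85, against 1.15 between all genes above the floor and 0.70 pooled between probe sets of the same gene. By the brightest probe sets, the order from liver to mesothelial side was Nfe2, Lyl1, Gfi1b, Lmo2, Klf1, Tal1, Gata1, Myb, Gata2 and Zfpm1. Neighbours in that order were at most 0.62 apart, less than the spread of 0.70 between probe sets, so no neighbour is set apart from the next beyond that spread. The order was the same under all 6 scalings, of which only quantile normalization could have changed it, since the others move every gene alike.

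**Figure D2:**
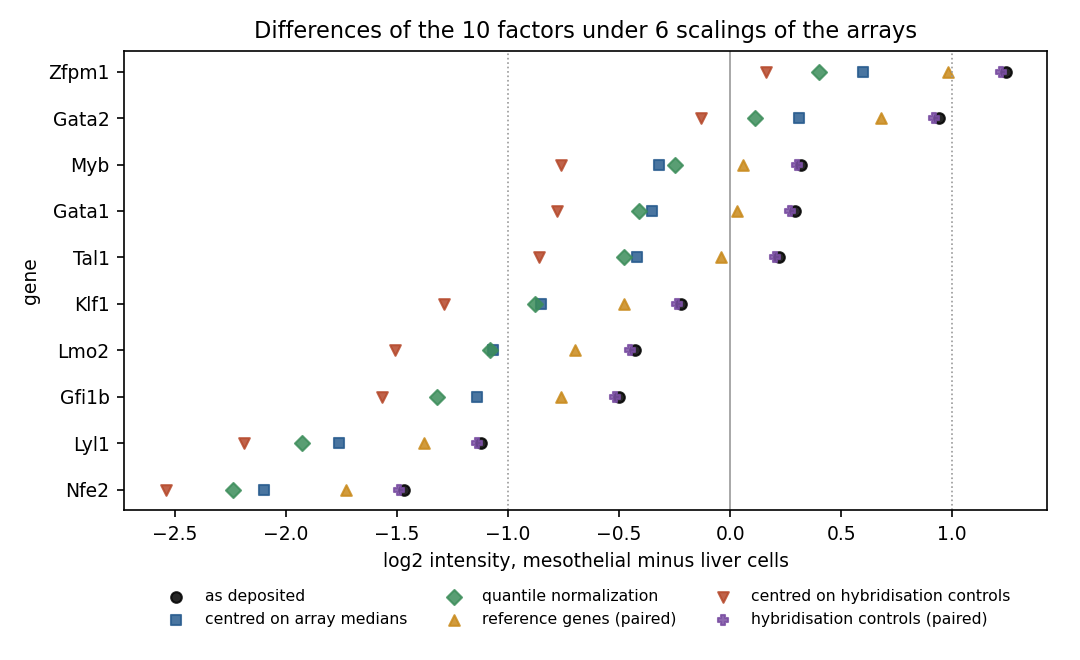
Difference of each of the 10 factors in log2 intensity, mesothelial minus liver cells, under 6 scalings of the arrays (symbols), with dotted lines at 2-fold. Values are those of the brightest probe set of each gene. Klf1, Lmo2, Gfi1b, Lyl1 and Nfe2 lie below 0 and Zfpm1 above 0 under every scaling shown, while Gata1, Gata2, Tal1 and Myb cross 0. Each factor is highest as deposited, so those below 0 there could not cross it.

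Paralogs, genes of the same families, were set beside the factors. Of 31 measured paralogs 24 were above the floor. Among these 11 passed 2-fold on the mesothelial side and 0 on the liver side, or 8 and 2 once the arrays were median-centred. Beside them 45.4% and 3.83% of all genes above the floor passed, or 23.9% and 9.25% once median-centred. The same shares stand beside the counts of every list below. The paralogs centred on 0.88, which is 0.21 against all genes and turned sign under another scaling. The GATA family split by member: Gata4, Gata5 and Gata6, factors of mesoderm and endoderm, read 11.3-fold, 11.4-fold and 10.1-fold higher in mesothelial cells, where Gata1 and Gata2 differed by under 2-fold. Gata4 read 1582.4 in mesothelial and 139.5 in liver cells, Gata5 248.6 against 21.9, and Gata6 628.4 against 62.1. The SDs between probe sets were 1.21, 0.68 and 0.67, and the medians over them 2.65, 3.02 and 2.32. These 3 kept the mesothelial side under the 6 scalings. The difference of Gata4 exceeded that of Gata1 by 3.21 on the log2 scale. Gata3 lay under the floor.

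Among the cofactors, Zfpm2, or FOG2, the partner of Gata4 in the developing heart, read 563.8 in mesothelial and 39.3 in liver cells, 14.3-fold higher, but its 2 probe sets disagreed widely (SD 2.31, median 2.21). Zfpm2 exceeded Zfpm1 by 2.60 on the log2 scale. Of 11 Klf paralogs above the floor 5 passed 2-fold on the mesothelial side: Klf12 by 2.93 (SD 1.37, median over probe sets 1.84), Klf7 by 1.67, Klf15 by 1.51, Klf13 by 1.43 and Klf4 by 1.10, the last only 0.02 under the lowest scaling. With the median over probe sets Klf7, Klf13 and Klf4 were within 2-fold, at 0.94, 0.99 and 0.87. Klf3, which Klf1 is known to activate in red cells, was on the liver side beside Klf1, at 1334.6 against 1760.1 and a difference of -0.40 (SD 0.44 over 7 probe sets). The rest of the Klf genes, Klf2, Klf6, Klf9, Klf10 and Klf16, differed by 0.10 to 0.88 with signs that turned under other scalings.

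In the family of Nfe2, the broadly expressed Nfe2l1 differed by 0.60 and Nfe2l2, the regulator of antioxidant genes, by -0.21, or 0.22 by the median over its probe sets, and Nfe2l3 by 2.64 (SD 1.72 over 3 probe sets, whose median was 0.25). Bach1, a repressor that competes for the sites of Nfe2 and is released by haem, differed by 0.79, a sign that turned under other scalings as that of Nfe2l1 did. Bach2, its relative in lymphocytes, differed by 1.65. Nfe2 was the member of this family furthest to the liver side, 2.06 below Nfe2l1. Of the other paralogs above the floor, Lmo3 differed by -0.49, and Lmo4, Mybl1 and Mybl2 by 0.93, 0.76 and 0.54 with signs that turned. Tal2, Nhlh1 and Nhlh2 read at the level of the bacterial controls on both arrays, and Gfi1 lay under the floor at 19.5 against 11.4.

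**Figure D3:**
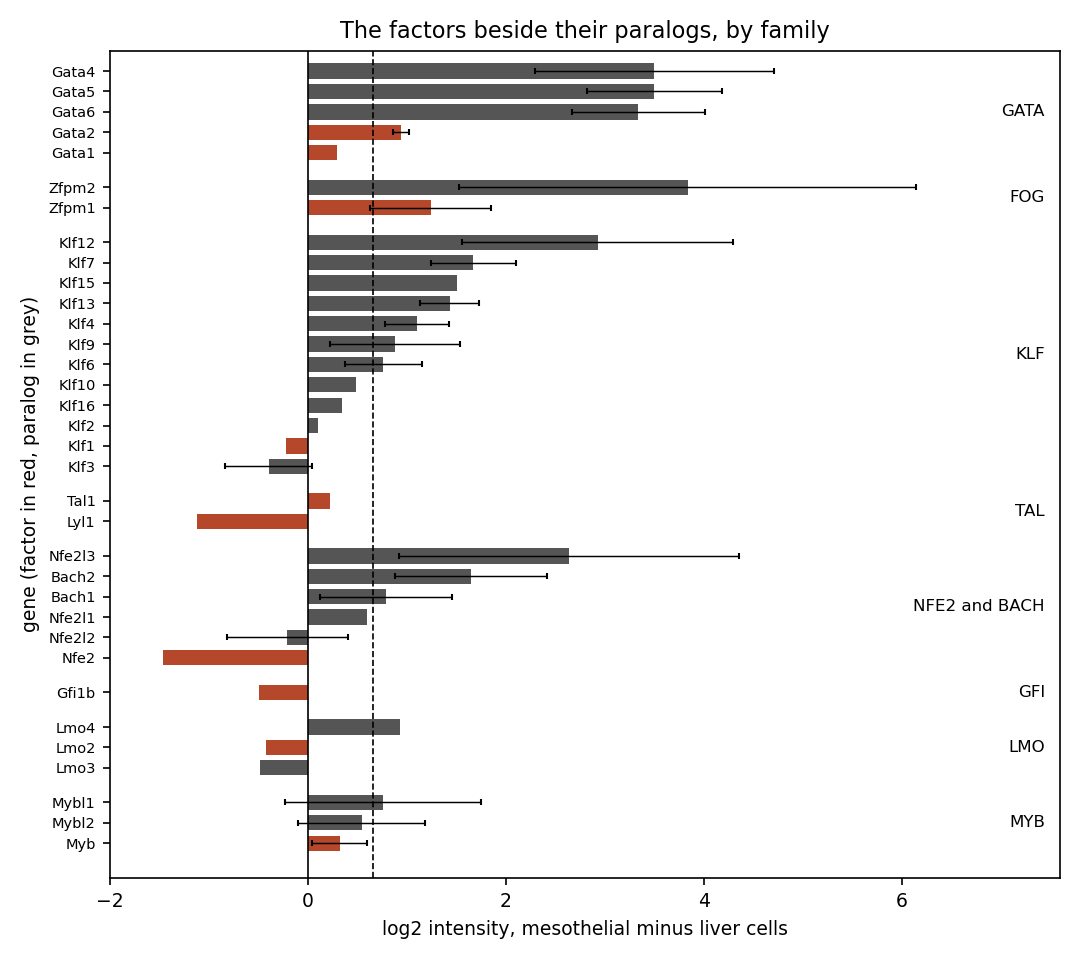
Difference in log2 intensity, mesothelial minus liver cells, for the factors (red) and those of their paralogs above the floor (grey), grouped by family, with a dashed line at the median of all genes. Bars start at 0 and give the brightest probe set, and whiskers give 1 SD between probe sets of a gene, drawn around that value where there are several. Gata4, Gata5, Gata6 and Zfpm2 reach 3.34 to 3.84, beyond each of the 10 factors.

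Proteins that work with the factors were measured too. Of 26 partners and corepressors, all above the floor, 9 passed 2-fold on the mesothelial side and 0 on the liver side. Once median-centred these counts were 5 and 0. The shares over all genes were 45.4% and 3.83%, or 23.9% and 9.25% once median-centred. The partners centred on 0.83, which is 0.16 against all genes and turned sign under another scaling. Those furthest to the mesothelial side were the E protein gene Tcf4 at 1.87, the Runx partner Cbfb at 1.84, the small Maf gene Maff at 1.82 and the corepressor Ctbp2 at 1.70. On the liver side were Mafk, the small Maf partner of Nfe2, at 344.6 against 441.8, Sp1 at -0.25, the E protein gene Tcf3 at -0.22 and Mbd3 at -0.15, each within 2-fold. Ldb1, the protein that holds the Lmo2 complex together, read 501.8 in mesothelial and 510.9 in liver cells. The corepressor Cbfa2t3 read 1178.6 against 845.0, a difference of 0.48 (SD 0.52 over 4 probe sets).

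Other blood transcription factors went both ways. Of 27 measured 24 were above the floor, and 9 passed 2-fold on the mesothelial side and 3 on the liver side. Once median-centred these counts were 4 and 3. The shares over all genes were 45.4% and 3.83%, or 23.9% and 9.25% once median-centred. The list centred on 0.64, which is -0.02 against all genes and turned sign under another scaling. E2f2, which acts in the last divisions of red cell precursors, read 192.7 in mesothelial and 1460.9 in liver cells, 7.58-fold higher in liver cells, and its 2 probe sets differed little (SD 0.13). Sox6, a factor of red cell maturation and globin silencing, read 445.3 against 983.5, and E2f4 307.4 against 631.5. Next in that direction was Zbtb7a at -0.14. Meis1, a factor of stem cells and megakaryocytes that other embryonic tissues also express, was 5.76-fold higher in mesothelial cells, though its 3 probe sets disagreed (SD 1.70). Fli1, a factor of megakaryocytes and endothelium, read 758.9 against 228.4, 3.32-fold higher and nearly alike for its 2 probe sets (SD 0.01), and Runx3 differed by 1.69. Ets1 differed by 1.91 with a probe set that can bind related transcripts and by -0.23 without such probe sets (SD 1.14 over 4), so its direction is not settled.

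Red cell genes, many of them known targets of Gata1 and Klf1, lay further to the liver side than the factors. Of 32 measured, all above the floor, 19 passed 2-fold on the liver side and 0 on the mesothelial side, or 27 and 0 once median-centred. They centred on -1.34, which is -2.01 against all genes, where the 10 factors stood at 0.00 and -0.66. The list holds E2f2, which also stands among the blood factors above. Furthest out were the membrane gene Epb42 at -4.19, Fn3k, whose enzyme removes sugar adducts from proteins, at -3.98, the embryonic globin gene Hbb-bh1 at -3.39 and Alas2, the red cell enzyme that begins haem synthesis, at -3.15. Alas2 read 549.9 in mesothelial and 4892.2 in liver cells. At the other end were Tmod1, which caps actin in the membrane skeleton, at 0.94, Cd36 at 0.49, Aqp1 at -0.01 and the erythropoietin receptor gene Epor at -0.22. Epor read 707.4 against 821.7, a difference equal to that of Klf1. None of the 32 was at control level on either array, and the summed intensity of the list was 54456 in mesothelial and 111108 in liver cells. All genes summed to 12408835 and 7529390, and the sums of the lists below are to be read beside these.

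**Figure D4:**
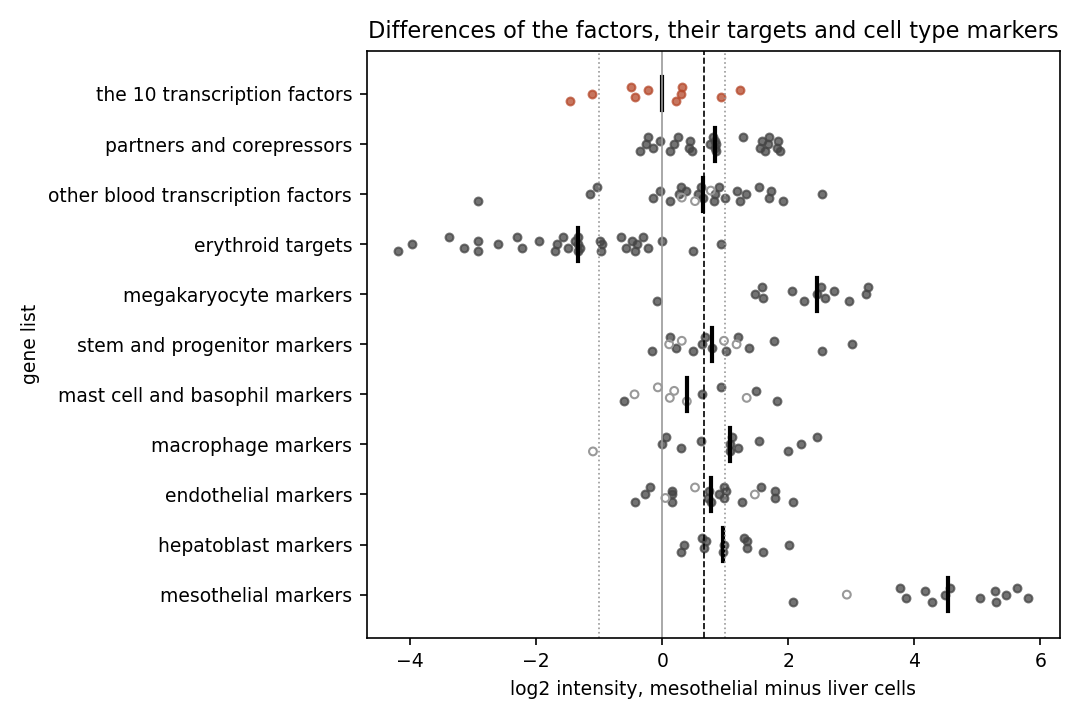
Difference in log2 intensity, mesothelial minus liver cells, for the 10 factors (red) and genes of other lists (grey, open where under the floor), 1 point a gene, with a bar at the median of each list, a dashed line at the median of all genes and dotted lines at 2-fold. The factors centre on 0.00, the erythroid targets on -1.34 and the megakaryocyte markers on 2.45.

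Markers of the cell types that share these factors are given beside them, since Gata1, Gata2, Tal1, Zfpm1, Nfe2 and Gfi1b also act in megakaryocytes. Of 13 megakaryocyte markers 12 passed 2-fold on the mesothelial side and 0 on the liver side, or 9 and 0 once median-centred, and their summed intensity was 35340 against 9247. The list's furthest members were Gp1bb at 3.26, Rgs18 at 3.23, Vwf at 2.96 and Gp6 at 2.72, and Selp was at -0.09 by its brightest probe set and 0.97 by the median over 3 (SD 1.84). Nfe2, required for platelet release, was 2.76-fold higher in liver cells. Gfi1b was 1.41-fold higher there, a difference of -0.50 that is within the spread of 0.70 between probe sets of a gene. Gata1, Gata2 and Tal1 read higher in mesothelial cells as deposited but turned sign under other scalings. Only Zfpm1 of these factors kept the mesothelial side, and only by its brighter probe set. The part of megakaryocyte RNA in the values of the 10 factors was not tested.

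Gata2 also marks mast cells and Lmo2, Lyl1, Tal1 and Gata2 endothelium. Among 11 mast cell and basophil markers, a list that holds Gata2 itself, Fcer1a, Mcpt4 and Tpsab1 were at control level on both arrays, and of 5 above the floor Cpa3 at 1.82 and Hdc at 1.49 passed 2-fold on the mesothelial side, the latter at 0.97 by the median over its probe sets. On the liver side were Mcpt8 at -0.60 and, under the floor, Ms4a2 at -0.44, and 1 marker passed on each side once median-centred. The summed intensity of the list was 1513 against 838, most of it from Gata2 at 643.8 against 334.8 and Kit at 381.7 against 247.3. Both are also among the 5 above the floor. Of 18 endothelial markers above the floor 6 passed 2-fold on the mesothelial side and 0 on the liver side, or 3 and 1 once median-centred. The shares over all genes were 45.4% and 3.83%, or 23.9% and 9.25% once median-centred. Furthest out were Flt4, Stab2 and Plvap at 2.07, 1.79 and 1.79, while Emcn, Pecam1 and Icam2 were at -0.44, -0.28 and -0.20. The endothelial sum was 5930 against 2953, where all genes summed to 12408835 against 7529390. None of the 21 measured was at control level, and the median of 0.77 turned sign under another scaling. The part of these cells in the values of the factors was not tested.

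Stem and progenitor markers centred on 0.79, which was under 0 when centred on the hybridisation controls. Among 13 above the floor 6 passed 2-fold on the mesothelial side and 0 on the liver side, or 3 and 0 once median-centred. The shares over all genes were 45.4% and 3.83%, or 23.9% and 9.25% once median-centred. Slamf1 differed by 3.01 (SD 1.01, median over probe sets 1.65), Meis1 by 2.53, Mycn by 1.78, or 0.94 by the median over its probe sets, and Ctsg by 1.38. Kit, the receptor that Gata2 is known to activate, read 381.7 against 247.3 (SD 0.23 over 2 probe sets). Flt3 was at control level on both arrays, and the list summed to 7709 in mesothelial and 3939 in liver cells. Of 12 macrophage markers above the floor 8 passed 2-fold on the mesothelial side and 0 on the liver side, or 3 and 0 once median-centred. The same shares stand beside these counts, and 3 of 12 is near the 23.9% of all genes. The macrophage sums were 9784 and 3376. The list centred on 1.08, or 0.00 with centring on the hybridisation controls. Csf1r, Marco, C1qb and Adgre1 lay furthest to the mesothelial side, at 2.45, 2.2, 1.99 and 1.54. Csf1r was at 1.73 by the median over probe sets, and C1qb at 1.28 without probe sets that can bind related transcripts. Cd68 read 257.9 against 258.5, and Cd163, under the floor, was at control level in mesothelial cells.

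The labels were checked on defining genes. Of 14 mesothelial markers 13 were above the floor and all 13 passed 2-fold on the mesothelial side, with Msln, Muc16 and Rspo1 at control level in liver cells. Pdpn, the gene of the sort, was 38.8-fold brighter on the mesothelial array. Hepatoblast markers were bright on both arrays, with sums of 74313 and 47594 beside 12408835 and 7529390 over all genes. On the mesothelial side 5 of 12 passed 2-fold, or 1 once median-centred, where 45.4% and 23.9% of all genes did. The list's median of 0.97 turned to -0.10 with centring on the hybridisation controls. RNA quality was not alike: the ratio of 3′ to 5′ control probe sets was 2.30 in mesothelial and 1.49 in liver cells for Actb, 2.15 and 1.95 for Gapdh, and 27.3 and 7.23 for Tfrc, itself a red cell gene. The part of this 3′ bias in the differences of the 10 factors was not tested.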

How the data were processed

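The authors' deposited table holds a linear intensity for each probe set, as its range of values shows. RMA and Partek are named in the submitters' processing notes without versions or roles, and no source used here gives a scaling between arrays. Amplification from 20 ng of RNA can alter transcript ratios. A free-text label describes far younger embryos than E12.5, and the stated age was used.

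Values were taken as log2 in Python 3.11.15 with pandas 2.3.3 and checked on simulated data. Of 45037 probe sets other than controls, 34945 had 1 symbol, and only these were used. A gene took its brightest probe set by mean log2 value. Its floor was the median of all probe sets of an array, on either array. With 1 array a group there was no test, and the number of arrays limits the precision. Control level is the highest of 27 bacterial control probe sets, 16.2 in mesothelial and 10.5 in liver cells.

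The 10 factors, the lists of related genes and the naming rule were chosen with earlier results of these data known. The rule names every factor, its paralogs above the floor, and up to 4 genes each way in other lists. Ldb1, Cbfa2t3, Kit and others under the floor or outside that number were added after their values were seen. Alternatives changed the scaling, the probe set, the floor and the fold. Promoter windows are from RefSeq, GRCm38.p6, as the 250 bases before the start.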

Additional observations from a re-analysis of the deposited data

How the results depend on the processing

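As deposited, 1 factor passed 2-fold on the mesothelial side and 2 on the liver side. The first count became 0 with the median over probe sets, median centring, quantile normalization, centring on the hybridisation controls, removal of the paired reference gene difference, and a 4-fold threshold. In that order 38.4%, 23.9%, 20.7%, 14.6%, 34.7% and 15.9% of all genes above the floor passed on the mesothelial side, against 45.4% as deposited. The second count became 4 with median centring and with quantile normalization, 5 with centring on the hybridisation controls, and 0 with a 4-fold threshold. In these settings 9.25%, 11.1%, 17.9% and 1.07% of all genes above the floor passed on the liver side, against 3.83% as deposited. The median over the factors moved from 0.00 to -1.07 with centring on the hybridisation controls, but was -0.02 with removal of their paired difference. These 2 uses of the same controls put the median of all genes at -0.41 and 0.64. A scaling moves all genes by about the same amount, which is how these counts change. Both counts held without probe sets ending in _x_at or _s_at, and with removal of the paired difference of the hybridisation controls, the latter chosen after seeing the data. They were also the same without a floor, with a floor at the 75th percentile and with low values at control level. Those changes could not alter them, since the brightest probe set of every factor lay above these levels on both arrays. No paired analysis was possible because each group has 1 array, and no array could be left out. With 7 of the 10 factors on 1 probe set, their values have no check within the array.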
